A study of Rattus norvegicus with 18 samples.

Results

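The genes described here are a list of 41 genes of cell division, 14 of DNA replication, 3 that control the entry into S phase and 24 of mitosis, in the livers of young rats. A gene was measured when the array's annotation gave it a probe, and where it had several, the brightest over the 18 arrays was used. By this rule 36 of the 41 genes were measured, among 13337 measured genes in all. They were 12 replication genes, all 3 control genes and 21 mitosis genes. No probe named for Rrm1, Tk1, Birc5, Top2a or Mki67 was found in the annotation used here, so Mki67 (Ki-67), the most used mark of dividing cells, is not among the values.

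The livers came from 18 Wistar rat pups sacrificed on PND 27, 6 in each group, with 3 males (replicates 1 to 3) and 3 females (replicates 4 to 6) a group. Their dams, 3 in each group, had been given caudal injections every 5 days from GD 15 to PND 20, for 6 injections in all. G1 dams received the vehicle of ethanol, Cremophor EL and water, G2 dams 0.002 mg/kg and G3 dams 0.2 mg/kg of BDE-47, a brominated flame retardant, in the same vehicle. Pups were exposed only through the dam, before birth and through milk, and 1 male and 1 female were taken from each litter, so that the 6 pups of a group are 3 pairs of littermates. The labels do not name the litters. All p-values below treat the 6 pups as independent and measure the spread between pups.

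A dividing cell first licenses and copies its DNA and then separates the copies. In the phase before S, D-type and E-type cyclins release the E2F factors, which switch on the genes of the replication machinery, and later the B-type cyclins with Cdk1, the Aurora and Polo kinases, the spindle checkpoint and the kinesin motors carry out mitosis. The liver of a growing rat still gains hepatocytes after birth, while in the adult most hepatocytes rest in G0 and re-enter the cycle after loss of tissue. Promoters of many mitosis genes carry CCAAT boxes and a cell cycle homology region (CHR), and promoters of many replication genes carry E2F sites. Below, G1, G2 and G3 always name the groups of pups and never a phase of the cycle.

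The promoter table of RefSeq on the GRCr8 build held 31 of the 41 genes (not Mcm4, Cdc6, Rrm2, Ccnd1, E2f1, Ccna2, Foxm1, Aurkb, Tpx2 or Ube2c). For the 2 brightest named replication genes and the 2 brightest named mitosis genes in that table, the 250 bases before the start site are printed, because the results below compare these roles. Capitals mark matches on either strand to CCAAT, to the CHR letters TTTGAA or TTCGAA, or to the E2F letters TTTCCCGC, TTTGGCGC, TTTCGCGC or TTTGCCGC.
Pcna, chr3:139955821-139956070, minus strand: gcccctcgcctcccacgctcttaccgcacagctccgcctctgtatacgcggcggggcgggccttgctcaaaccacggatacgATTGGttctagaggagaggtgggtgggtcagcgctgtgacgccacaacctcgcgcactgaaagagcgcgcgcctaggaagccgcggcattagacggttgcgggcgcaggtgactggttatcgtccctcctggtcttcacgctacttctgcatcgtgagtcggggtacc
Mcm6, chr13:42404353-42404602, minus strand: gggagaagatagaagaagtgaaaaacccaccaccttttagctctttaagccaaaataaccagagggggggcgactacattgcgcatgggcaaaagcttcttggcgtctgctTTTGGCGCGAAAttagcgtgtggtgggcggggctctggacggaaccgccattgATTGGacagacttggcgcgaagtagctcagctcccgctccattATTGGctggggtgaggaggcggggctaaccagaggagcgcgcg
Ccnb2, chr8:79981659-79981908, minus strand: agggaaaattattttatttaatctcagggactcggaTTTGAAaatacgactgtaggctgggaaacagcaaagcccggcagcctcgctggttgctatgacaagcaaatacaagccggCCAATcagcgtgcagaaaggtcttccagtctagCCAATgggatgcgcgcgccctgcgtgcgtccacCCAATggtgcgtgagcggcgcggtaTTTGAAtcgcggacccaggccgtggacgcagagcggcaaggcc
Cdk1, chr20:19265043-19265292, plus strand: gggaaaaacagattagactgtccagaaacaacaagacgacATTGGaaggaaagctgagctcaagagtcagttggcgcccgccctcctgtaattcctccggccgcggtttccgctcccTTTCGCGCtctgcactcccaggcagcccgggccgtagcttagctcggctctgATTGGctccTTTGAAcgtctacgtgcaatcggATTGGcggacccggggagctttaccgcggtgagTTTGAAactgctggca

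In these windows Pcna held a single CCAAT match, on the opposite strand. Mcm6 held 2 CCAAT matches and 2 overlapping E2F matches, 1 on each strand, that begin 139 and 135 bases before the start site. Ccnb2 held 3 CCAAT matches spaced along the window and 2 CHR matches, the nearer 43 bases before the start site. Cdk1 held 3 CCAAT matches, 2 CHR matches and 1 E2F match. Over the 11 replication genes in the table, 6 held an E2F match (54.5%), against 1 of 19 mitosis genes and 1.81% of all 27457 promoters. A CHR match stood in 8 of the 19 mitosis genes (42.1%), 3 of the 11 replication genes (27.3%) and 17.3% of all promoters. A CCAAT match stood in 15 of 19 mitosis genes (78.9%), 7 of 11 replication genes (63.6%) and 34.3% of all promoters, and both a CHR and a CCAAT match in 7 mitosis genes (36.8%), 2 replication genes and 6.22% of all promoters. A match is a run of letters and not a measured binding site.

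Levels are given in log2 units, where a difference of 1 is 2-fold, and the median of all values was 7.84. Of the 36 genes, 20 had a mean over the 18 pups within 0.5 of that median, 17 within 0.25 and 30 within 1. Of all measured genes, 65.3% lay within 0.5 of it. The 20 were 6 of 12 replication genes, 2 of 3 control genes and 12 of 21 mitosis genes. Cdt1, which loads the MCM helicase, Ccnb1 and Cenpf, a kinetochore protein, lay below the median. The files hold no detection call or background, so a low value here can be a low level or no signal above background. The median SD of a member over the 18 pups was 0.126, against 0.0508 over all genes.

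**Figure D1:**
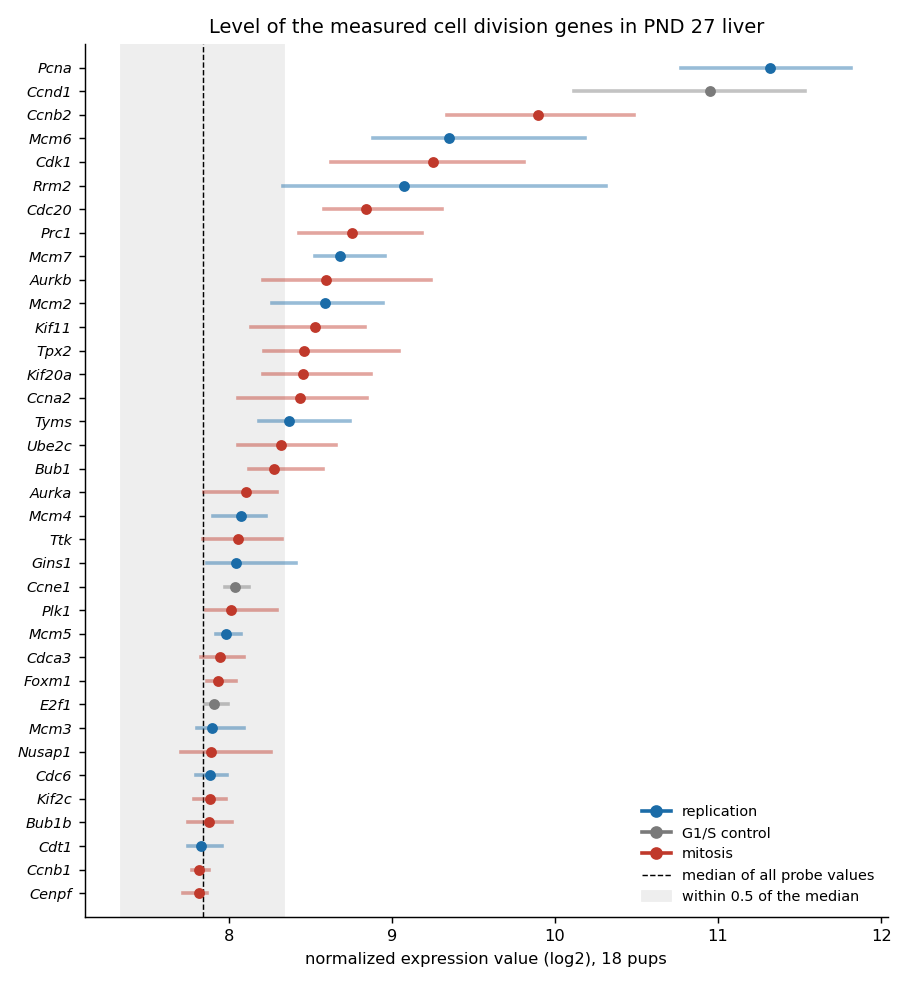
Level of each of the 36 measured cell division genes. The x axis is the normalized expression value (log2), points are means over 18 pups, bars run from the lowest to the highest pup, the dashed line is the median of all values (7.84) and the grey band is within 0.5 of it. Pcna and Ccnd1 stand highest, at 11.32 and 10.95, and 20 of 36 means lie in the band.

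Among the replication genes, Pcna, the sliding clamp of the DNA polymerases, was the brightest, with a mean of 11.32. It was followed by Mcm6, a subunit of the replicative helicase (9.35), Rrm2, the small subunit of ribonucleotide reductase (9.07), and the helicase subunits Mcm7 (8.69) and Mcm2 (8.59). Tyms, thymidylate synthase, lay at 8.37, while Mcm4 (8.08), Gins1 (8.05), Mcm5 (7.99), Mcm3 (7.90), Cdc6 (7.89) and Cdt1 (7.83) were in the band. Each level is the signal of 1 probe, so this order is one of probe signals and not of transcript amounts. Rrm2 varied most of all 36 genes, with a range over the 18 pups of 1.98, which is 3.94-fold.

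Of the control genes, Ccnd1, cyclin D1, was bright (10.95) and had the next widest spread, an SD of 0.405 over the 18 pups. Ccne1, cyclin E1 (8.04), and E2f1 (7.91), the transcription factor that cyclin D releases from Rb1, lay in the band. Among the mitosis genes, Ccnb2, cyclin B2 (9.90), and Cdk1, the kinase it activates (9.25), were the brightest. Cdc20, which turns on the anaphase-promoting complex (8.84), Prc1, which bundles the central spindle (8.76), Aurkb, Aurora kinase B (8.60), and the spindle motor Kif11 (8.53) came next.

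In Pcna the pups ranged from 10.77 through a median of 11.32 to 11.65 in G1, from 11.25 through 11.40 to 11.82 in G2 and from 11.10 through 11.23 to 11.41 in G3. The 3 groups overlapped, and the control pups spread widest (SD 0.325, against 0.196 in G2 and 0.109 in G3, n = 6 each). The lowest pup was G1 replicate 1 and the highest G2 replicate 6. These same 2 pups were the extremes of Mcm6, which ran from 8.88 through 9.33 to 9.54 in G1, from 9.19 through 9.51 to 10.19 in G2 and from 8.92 through 9.19 to 9.48 in G3. They were also the extremes of Rrm2, from 8.33 through 8.56 to 9.65 in G1, from 8.80 through 9.15 to 10.31 in G2 and from 8.81 through 9.05 to 9.54 in G3. In both genes every group overlapped every other.

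Ccnb2 was between 9.34 and 10.14 in G1 (median 9.73), between 9.47 and 10.34 in G2 (median 9.91) and between 9.73 and 10.48 in G3 (median 10.05). All 6 G3 pups were above the G1 mean of 9.71, and the ranges overlapped. Cdk1 was between 8.63 and 9.56 in G1 (median 8.96), between 8.99 and 9.81 in G2 (median 9.29) and between 8.91 and 9.66 in G3 (median 9.42). Each group of Cdk1 held low and high pups that overlapped the other groups, and the spread within a group (SD 0.300 to 0.376) was wider than the difference between any 2 group means.

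Ccnd1 was between 10.12 and 11.53 in G1 (median 11.01), between 10.50 and 11.46 in G2 (median 11.00) and between 10.46 and 11.49 in G3 (median 10.87). Both the highest and the lowest of the 18 pups were controls. In the plot of values per pup, the 3 G3 males lay above the 3 G3 females for this gene.

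**Figure D2:**
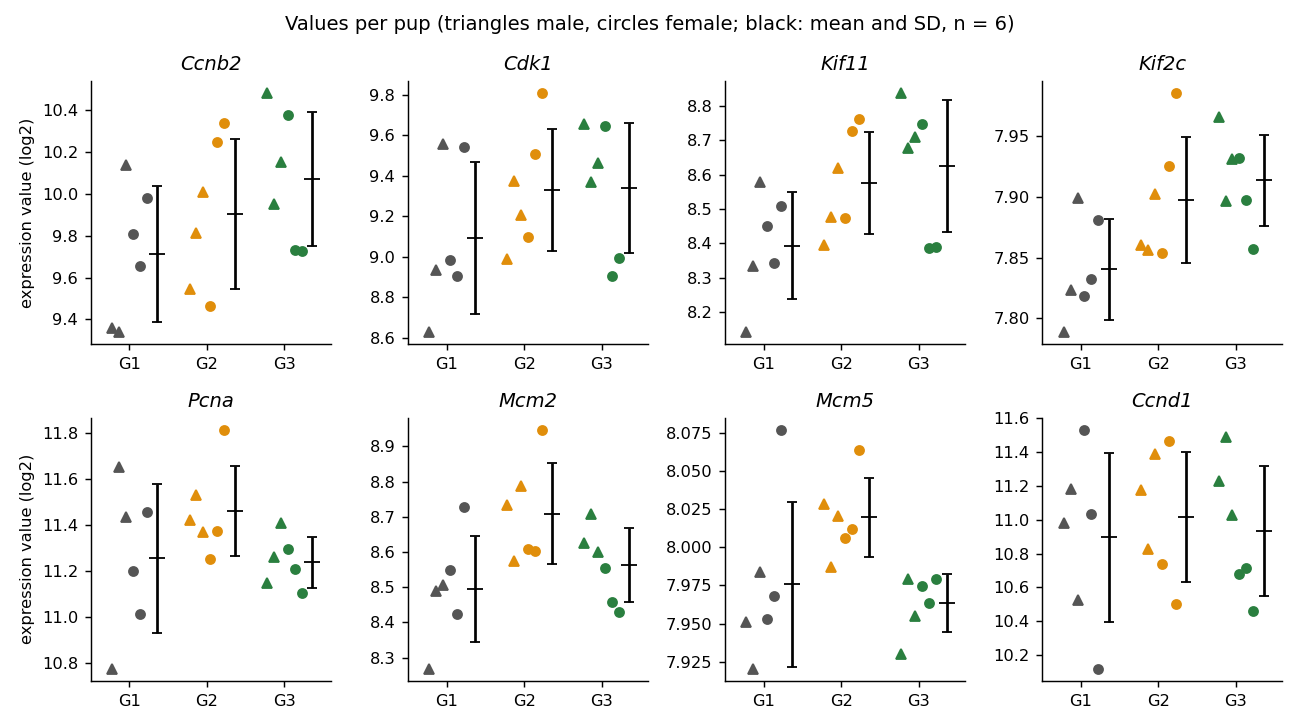
Values per pup of 4 mitosis genes (top), 3 replication genes and Ccnd1 (bottom). Each y axis is the normalized expression value (log2) and has its own range that does not start at 0, triangles are male and circles female pups, and black marks are the group mean and SD (n = 6). Mcm5 is the only one of the 36 genes in which G2 and G3 do not overlap.

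Across the 18 pups the mitosis genes moved together. Over the 210 pairs of mitosis genes the median Pearson r was 0.78, over the 66 pairs of replication genes 0.50 and over the 252 pairs of 1 gene of each kind 0.38. With the differences between group means taken out, the medians were 0.76, 0.40 and 0.44. Without G2 replicate 6 they were 0.73, 0.38 and 0.21. These correlations are over 18 arrays that share 1 normalization, and genes are not independent replicates.

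To set a gene against the rest of its role, its r with the mean of the other mitosis genes was taken, each centred on its own mean. Of 21 mitosis genes, 18 had an r above 0.7, among them 9 of the 12 near the median of all values. Prc1 (0.95), Ccna2, cyclin A2 (0.95), and Ttk, the spindle checkpoint kinase MPS1 (0.94), were the highest. The 3 below 0.7 were Ccnb1, cyclin B1 (-0.03), Foxm1, the transcription factor of many mitosis genes (0.53), and Cenpf (0.58), and all 3 are near the median. Against the same mitosis mean, Rrm2 (0.71), Mcm7 (0.67) and Mcm2 (0.61) were the highest of the replication genes, and Tyms (-0.16) and Gins1 (0.05) the lowest. The control genes did not follow it, with an r of -0.20 for Ccnd1, -0.29 for Ccne1 and 0.15 for E2f1.

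Among 13336 genes ranked by their r with Cdk1 over the 18 pups, 11 of the first 30 were mitosis genes of the list, led by Ccna2 (0.93), Prc1 (0.92) and Kif11 (0.91), with Ccnb2 at 0.90. A further 9 were on the lists of other mitosis and cytokinesis genes drawn up beside it, such as Nuf2, a kinetochore protein (0.93), and Hmmr, a spindle protein (0.91). The other 10 were on no list and included Aspm (0.92), Kif20b (0.91), Knstrn (0.86), Stmn1 (0.81), which codes for the microtubule protein stathmin, and the histone variant H2az1 (0.81). Over all genes the median r with Cdk1 was -0.03 and the 95th percentile 0.49.

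Of 10 pairs among Pcna, Mcm6, Ccnd1, Cdk1 and Ccnb2, Cdk1 and Ccnb2 were the closest, with a Pearson r of 0.90 and a Spearman rho of 0.88 over 18 pups (permutation p = 1e-05 for both, the smallest that 100000 resamples can give, 0.0001 adjusted over the 10 pairs). The r was 0.87 without the 2 pups farthest from the median of Cdk1, and 0.89, 0.89 and 0.96 within G1, G2 and G3. Pcna and Mcm6 had an r of 0.72 (permutation p = 0.00103, adjusted 0.00515) and a rho of 0.59 (permutation p = 0.0127, adjusted 0.0638). Without G1 replicate 1 and G2 replicate 6 that r was 0.41, so the relation rests in part on these pups. For Pcna with Cdk1 the r was 0.57 (permutation p = 0.0122, adjusted 0.0407) and the rho 0.49 (permutation p = 0.0433, adjusted 0.144), and the r was 0.22 without the same pups. Ccnd1 had an r between -0.23 and 0.12 with the other 4 genes (adjusted permutation p between 0.509 and 0.832). Littermates share a dam, so the 18 pups are not fully independent in these tests.

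**Figure D3:**
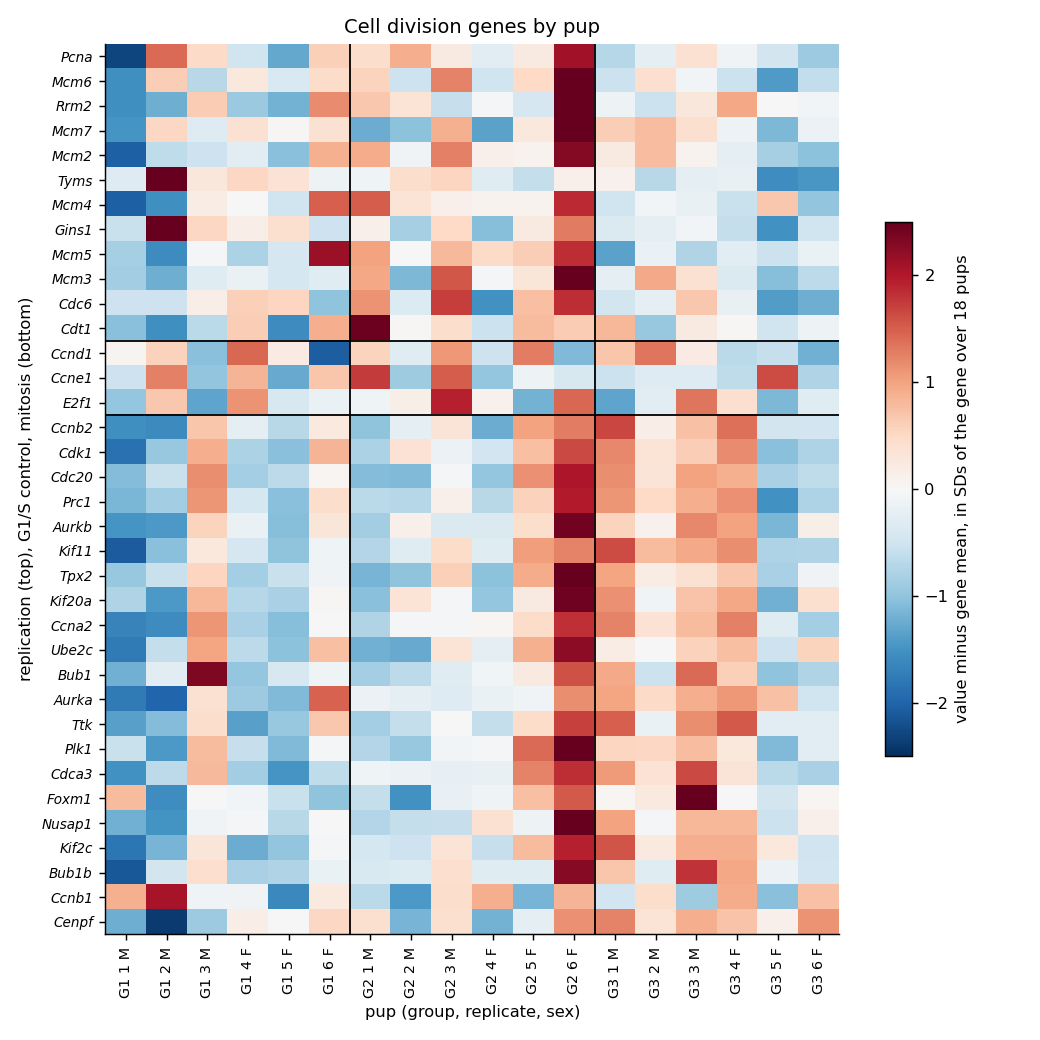
The 36 cell division genes (rows, by role and within a role from the brightest down) in the 18 pups (columns, by group, replicate and sex). Colour is the value minus the gene's mean, in SDs of the gene over the 18 pups. G2 replicate 6 is highest in 22 of 36 genes, and the mitosis genes share their high and low pups.

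A score per pup was taken for each role as the mean over its genes of the value minus the gene's mean over the 18 pups. For mitosis the score ran from -0.22 to 0.12 in G1 (mean -0.08, SD 0.130), from -0.13 to 0.30 in G2 (mean 0.02, SD 0.157) and from -0.11 to 0.17 in G3 (mean 0.06, SD 0.120). For replication it ran from -0.22 to 0.09 in G1 (mean -0.04, SD 0.112), from -0.05 to 0.33 in G2 (mean 0.07, SD 0.134) and from -0.11 to 0.02 in G3 (mean -0.04, SD 0.0524). All ranges overlapped. G2 replicate 6 was the highest pup in both scores and the highest of 18 in 22 of the 36 genes, 14 of mitosis and 8 of replication. G1 replicate 1 was the lowest pup in both, and the lowest of 18 in 15 genes.

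The group differences in these scores were 0.11 (G2 minus G1) and 0.00 (G3 minus G1) for replication and 0.10 and 0.13 for mitosis. Without G2 replicate 6 the G2 values were 0.06 and 0.05. The 2 scores had an r of 0.65 and a rho of 0.45 over the 18 pups, and an r of 0.26 without G1 replicate 1 and G2 replicate 6. In 4 of the 6 G3 pups (all 3 males and replicate 4) the mitosis score lay above 0, at 0.03 to 0.17, with a replication score of -0.04 to 0.02. Within these ranges also lay G1 replicate 3 (mitosis 0.12, replication 0.01) and G2 replicate 5 (mitosis 0.10, replication 0.01). The mitosis score minus the replication score had a mean of -0.04 in G1, -0.05 in G2 and 0.09 in G3, and each of the 6 G3 pups was above the mean of G1 and above that of G2. The G1, G2 and G3 ranges of this difference overlapped (-0.19 to 0.10, -0.21 to 0.09 and -0.00 to 0.21).

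**Figure D4:**
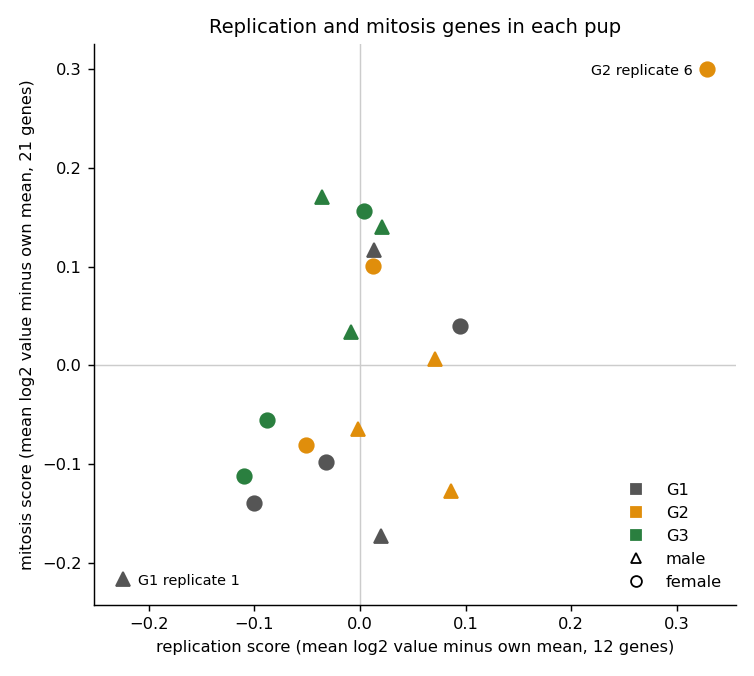
Replication score (x axis) and mitosis score (y axis) of each pup, both the mean over genes of the log2 value minus the gene's mean over 18 pups. Colours are groups, triangles male and circles female pups. G2 replicate 6 stands alone at 0.33 and 0.30. Above 0 in mitosis and near 0 in replication lie 4 of the 6 G3 pups, with G1 replicate 3 and G2 replicate 5 among them.

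The G2 comparison asks whether 0.002 mg/kg to the dam changed the genes. No member passed the test of G2 against G1 (limma, Benjamini-Hochberg adjustment over all 22523 probes). The smallest adjusted p was 0.486, and 0.0133% of all probes passed. Of the 36 genes 33 had a higher mean in G2, with a median difference of 0.09, while 47.5% of all probes were higher and their median was about 0. Whole liver was measured, in which more dividing cells and more RNA per dividing cell cannot be told apart. At an unadjusted p of 0.05, 4 of the 36 genes were higher and 0 lower, against 4.40% and 5.59% of all probes. The 4 were the helicase subunits Mcm2 and Mcm3, Cdca3, which targets Wee1 for destruction, and Kif11. Without G2 replicate 6 only Mcm2 was left, against 3.40% of all probes higher and 4.08% lower. Then 18 of 21 mitosis genes and 9 of 12 replication genes had a higher mean, with median differences of 0.03 and 0.06.

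Mcm2 ran from 8.27 through 8.50 to 8.73 in G1, from 8.57 through 8.67 to 8.95 in G2 and from 8.43 through 8.58 to 8.71 in G3. It was 0.21 higher in G2 (standard error 0.08, adjusted p = 0.486 by limma), and every G2 pup was above the G1 mean. Mcm3 was 0.09 higher in G2 (standard error 0.04, adjusted p = 0.491 by limma), with 5 of 6 G2 pups above the highest control at 7.89, and its level of 7.90 is near the median of all values. The widest G2 difference was in Rrm2, 0.45 with a 95% interval of -0.20 to 1.10. An exact permutation of 6 pups against 6 gave an unadjusted p of 0.05 or less for 2 genes, Mcm2 and Mcm3.

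In G3, where the dams received 0.2 mg/kg, no member passed the test either. The smallest adjusted p was 0.125 (Kif2c, a kinesin that takes microtubules apart, by limma), and 0.0799% of all probes passed. Of 21 mitosis genes 20 had a higher mean in G3 than in G1, with a median difference of 0.12, the exception being Ccnb1 (-0.01). Of 12 replication genes 6 were higher and 6 lower, with a median of about 0, and 45.7% of all probes were higher. The difference between the roles was not tested.

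At an unadjusted p of 0.05, 7 of the 36 genes were higher in G3 and 1 lower, against 8.59% and 9.98% of all probes. All 7 were mitosis genes, 33.3% of the 21. They were Kif2c, Cenpf, Nusap1 and Kif11, and 3 named here after their values were seen, Ttk, Aurka (Aurora kinase A) and the checkpoint protein Bub1b. Except for Kif11, they lie within 0.5 of the median of all values, where signal cannot be set against a background. Of the 20 genes of any role in that band 6 were higher. Of the 16 above it 1 was (6.25%), a share below that of all probes. By exact permutation 6 genes reached 0.05 in this comparison, Kif2c, Cenpf, Nusap1, Kif11 and the 2 lower genes Tyms and Gins1, the last also named after its value was seen. Without G3 replicate 2, whose muscle genes are high (below), 5 of the 36 genes were left, all of mitosis and all higher. The shares of all probes in that fit were 8.51% higher and 9.27% lower. There 20 of 21 mitosis genes still had a higher mean. Without G1 replicate 3, the control with the highest mitosis score, 17 genes reached 0.05, the 16 of mitosis all higher, against 8.92% of all probes higher. Leaving out the highest control widens the mitosis differences by construction, so this count adds no evidence for them. With G1 replicate 2, 4 or 5 or G3 replicate 1, 3 or 4 left out, the count fell from 8 to 4. In these fits 15.9% to 17.3% of all probes reached 0.05. Without G1 replicate 6, 1434 of 22523 probes passed the test in place of 18, which is 6.37%. Among the 36 genes 1 passed, Aurka (0.22 higher, adjusted p = 0.0455 by limma), a share below that of all probes.

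Kif2c ran from 7.79 through 7.83 to 7.90 in G1, from 7.85 through 7.88 to 7.99 in G2 and from 7.86 through 7.92 to 7.97 in G3. All 6 pups of G2 and of G3 were above the G1 mean, and the groups overlapped. Its G3 difference was 0.07 (standard error 0.02, exact two-sided permutation p = 0.0152), and it lies at the median of all values. Cenpf lies there too, with 7.72 to 7.84 in G1 and 7.82 to 7.87 in G3, and a difference of 0.06 (standard error 0.02, adjusted p = 0.159 by limma).

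Kif11 lies clear of the band and gave a wider difference. Its pups ran from 8.14 through 8.40 to 8.58 in G1, from 8.40 through 8.55 to 8.76 in G2 and from 8.39 through 8.69 to 8.84 in G3. The 4 highest G3 pups stood above every control, and the other 2, replicates 5 and 6, stood at 8.39. The difference was 0.18 in G2 (standard error 0.08, adjusted p = 0.501 by limma) and 0.23 in G3 (standard error 0.09, adjusted p = 0.219 by limma). A second probe for Kif11, at 7.77, had an r of 0.34 with this one and means of 7.76 in G1, 7.76 in G2 and 7.79 in G3. Nusap1, which binds spindle microtubules, ran from 7.71 through 7.85 to 7.90 in G1 and from 7.83 through 7.96 to 8.02 in G3, a difference of 0.12 (standard error 0.04, adjusted p = 0.170 by limma). Unlike Kif11, it lies near the median of all values, with a mean of 7.89.

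The widest mitosis difference in G3 was in Ccnb2, 0.36 higher (95% interval -0.03 to 0.74, adjusted p = 0.301 by limma). Cdk1 was 0.25 higher (-0.17 to 0.66, adjusted p = 0.530 by limma), Ccna2, named after its value was seen, 0.25 higher (-0.01 to 0.50, adjusted p = 0.292 by limma) and Aurkb 0.23 higher, with 8.21 to 8.75 in G1 and 8.30 to 8.92 in G3. None of the 36 genes differed 2-fold between groups. Tyms had the lowest G3 difference of the 36. It ran from 8.33 through 8.41 to 8.75 in G1, from 8.30 through 8.37 to 8.43 in G2 and from 8.19 through 8.31 to 8.38 in G3, and all 6 G3 pups were below the G1 mean. The difference was -0.16 (standard error 0.07, adjusted p = 0.238 by limma, exact permutation p = 0.0173). Pcna (-0.02) and Mcm6 (-0.07) had G3 means close to the controls.

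**Figure D5:**
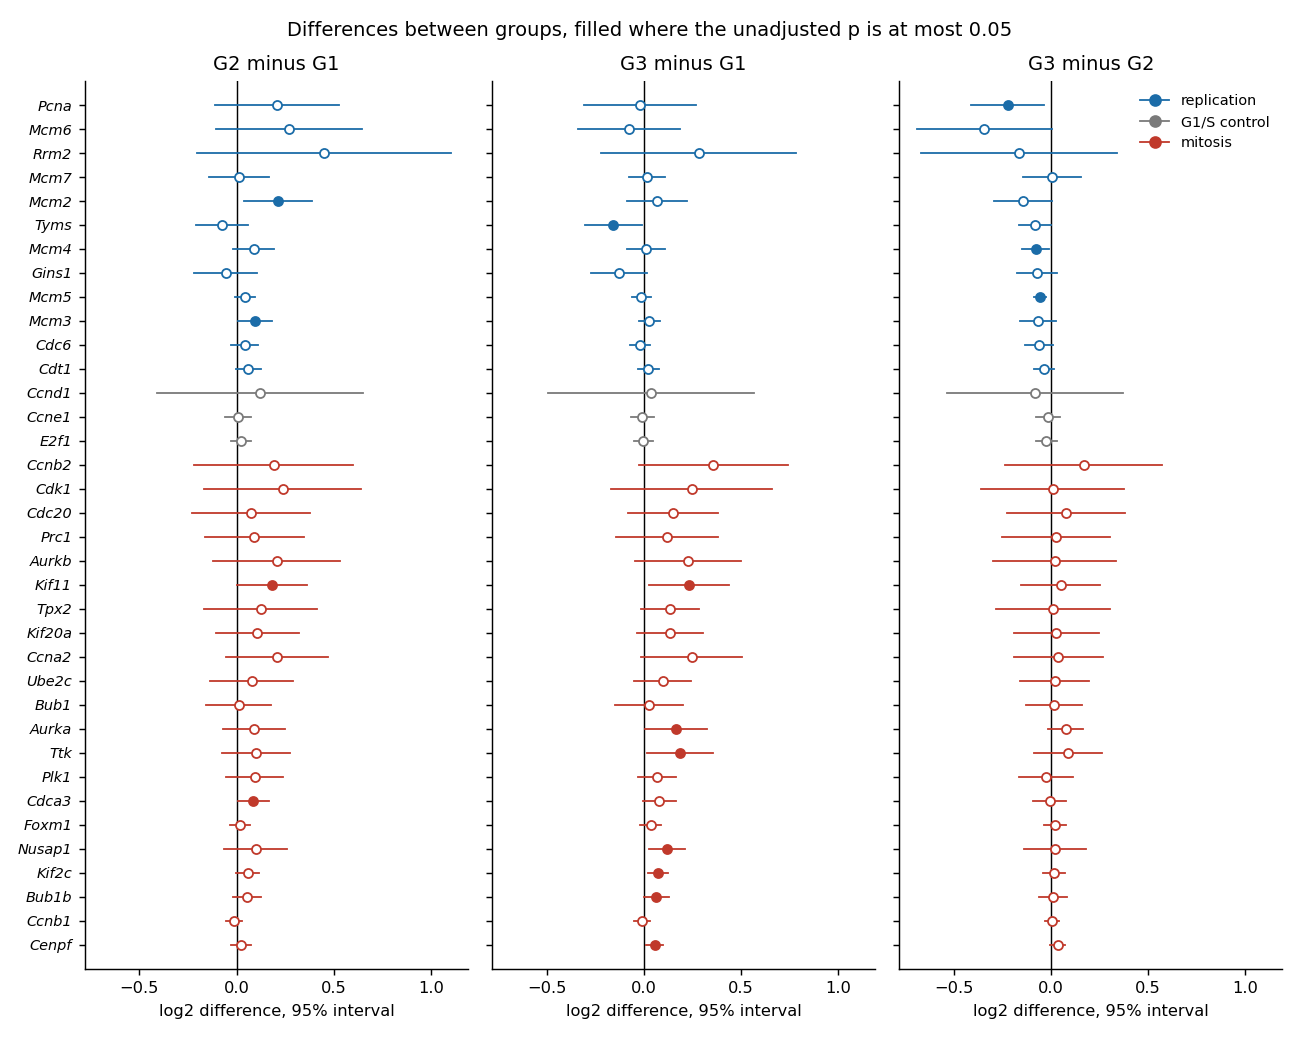
Difference between group means (x axis, log2) of each of the 36 genes, with its 95% interval, for G2 minus G1, G3 minus G1 and G3 minus G2 (n = 6 pups a group). Points are filled where the unadjusted p is at most 0.05, and none passed after adjustment. In the middle panel 20 of 21 mitosis genes lie to the right of 0, and in the right panel 11 of 12 replication genes lie to the left.

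The G3 against G2 comparison sets the 2 doses side by side. No member passed the test of G3 against G2 (smallest adjusted p 0.279 by limma, with 0.0178% of all probes past it). Of the 12 replication genes 11 had a lower mean in G3 than in G2, with a median of -0.07, and Mcm7 was the exception (0.00). At an unadjusted p of 0.05, 0 genes were higher and 3 lower, against 4.18% and 5.29% of all probes. The 3 were Mcm5, Pcna and Mcm4, the last outside the naming rule. Without G2 replicate 6, 10 of 12 replication genes were lower in G3 and 2 of the 3, Mcm5 and Pcna, still reached 0.05, as did 3 mitosis genes that were higher in G3 (Cenpf, Nusap1 and Aurka). For mitosis 19 of 21 genes were higher in G3 than in G2 with a median of 0.02, and 21 of 21 with a median of 0.09 without that pup. In males only 21 of 21 mitosis genes were higher (median 0.15), and in females only 3 of 21 were (median -0.10). These fits rest on 3 pups a group, and a difference between the sexes was not tested for this comparison. The G2 females include replicate 6, with mitosis scores of -0.08, 0.10 and 0.30, against -0.11, -0.06 and 0.16 in G3 females. The 3 comparisons share groups, and G2 enters this one with the opposite sign.

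Mcm5 was the only member whose groups did not overlap in any comparison. Its G2 pups ran from 7.99 through 8.02 to 8.06 and its G3 pups from 7.93 through 7.97 to 7.98. The difference was -0.06 (standard error 0.01, adjusted p = 0.279 by limma). The exact permutation p of 0.00216 is the smallest that test can give. Any gene without overlap receives it, so it adds nothing to the lack of overlap. In this comparison 0.608% of all probes did not overlap. In G2 against G1 and in G3 against G1, 0 of the 36 genes and 0.448% and 1.95% of all probes did not. The controls, from 7.92 through 7.96 to 8.08, spanned both groups. A second Mcm5 probe, at 7.84, had an r of 0.81 with this one and means of 7.87 in G2 and 7.83 in G3. For Pcna G3 minus G2 was -0.22 (95% interval -0.41 to -0.04, adjusted p = 0.463 by limma), and no G3 pup was above the G2 mean. For Mcm6 it was -0.34 (-0.69 to 0.00, adjusted p = 0.532 by limma).

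Over the 3 groups together an F-test passed 0 of the 36 genes (smallest adjusted p 0.225 by limma) and 0.186% of all probes. Unadjusted, 5 genes reached 0.05, Mcm2, Mcm5, Tyms, Kif2c and Cenpf, against 17.0% of all probes. Without G1 replicate 6, 902 of all probes passed in place of 42, and 1 of the 36 genes, Mcm5 (adjusted p = 0.0307 by limma), a share below that of all probes.

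Over the 3 groups, 9 females were set against 9 males. No member passed the test (smallest adjusted p 0.974 by limma, with 0.00444% of all probes past it), and at an unadjusted p of 0.05 the count was 0 higher and 0 lower in females, against 2.00% and 1.95% of all probes. For Ccnd1 females minus males was -0.29 (95% interval -0.66 to 0.08).

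Set against controls of their own sex, the exposed pups gave these values. In males the median mitosis difference was 0.03 in G2 (13 of 21 genes higher) and 0.18 in G3 (20 of 21). In females it was 0.18 in G2 (20 of 21) and 0.05 in G3 (20 of 21). For replication the medians in males were 0.10 in G2 and 0.07 in G3, and in females 0.03 in G2 and -0.05 in G3, where 11 of 12 genes were lower than in control females. The interaction of sex and exposure passed 0 of 36 genes for G2 (0% of all probes) and 0 for G3 (0.00444% of all probes). Unadjusted, 1 gene reached 0.05 for G2 and 2 for G3, against 3.92% and 4.16% of all probes, and each value here rests on 3 pups. The G2 female value rests largely on replicate 6, since the mitosis scores of the 3 G2 females were -0.08, 0.10 and 0.30.

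By sex, the bright genes gave unlike differences in G3. Against controls of the same sex, Pcna was -0.02 in males and -0.02 in females, and Rrm2 0.28 in males and 0.29 in females. In the 3 genes that follow, the difference was higher in males. In G3 males Ccnb2 was 0.58 above control males and in G3 females 0.13 above control females (interaction -0.45, adjusted p = 1 by limma). Cdk1 was 0.46 and 0.04 (interaction -0.42, adjusted p = 1). For Mcm6 the values were 0.15 in males and -0.30 in females (interaction -0.44, adjusted p = 1).

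Other genes of the same processes were taken from lists drawn up beside the members. None passed the test in any comparison. The counts at an unadjusted 0.05 that follow stand against 4.40% of all probes higher and 5.59% lower in G2, and 8.59% higher and 9.98% lower in G3. Of 37 other replication genes, 3 reached an unadjusted 0.05 as higher and 0 as lower in G2, and 4 and 2 in G3, with medians of 0.01 and 0.00. Pola1, the catalytic subunit of polymerase alpha, was 0.10 higher in G3 (adjusted p = 0.0584 by limma), and Prim2, a primase subunit, 0.12 higher in G2 (adjusted p = 0.435). Of 27 other mitosis genes, 0 reached it in G2 and 6 as higher in G3, with medians of 0.03 and 0.02. A mean above that of G1 was found for 20 of the 27 in G2 and for 18 in G3. The condensin subunits Ncapd2 and Smc2 were 0.14 and 0.23 higher in G3 (adjusted p = 0.148 and 0.159 by limma). The mean of these 27 genes had an r of 0.96 with the mitosis score over the 18 pups, and that of the 37 an r of 0.85 with the replication score.

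Of 11 cytokinesis genes, 1 was higher at an unadjusted 0.05 in G2 and 4 in G3. The largest was Rhoa, the GTPase of the contractile ring, 1.03 higher in G3 (standard error 0.24, adjusted p = 0.0788 by limma), a gene that also acts in resting cells. Of 13 other cyclins and cell cycle kinases, 1 was higher and 1 lower in G2, and 0 and 1 in G3. Of 17 inhibitors and arrest genes, 0 and 0 in G2, and 2 higher and 2 lower in G3, where Rb1 was 0.10 higher (adjusted p = 0.0769 by limma) and the value for Cdkn1c, the inhibitor p57, was -0.07 (adjusted p = 0.170). Of 13 hepatocyte growth signals and receptors, 2 were higher in G2 and 4 in G3, with 0 lower, and Insr, the insulin receptor, was 0.17 higher in G3 (adjusted p = 0.0584 by limma).

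The tissue carried the marks of hepatocytes, with Alb at 15.53, Ttr at 15.41 and Tf at 15.45 on the log2 scale in the mean of 18 pups. The 9 hepatocyte markers had a mean level between 13.84 and 14.20 in single pups of every group and an r of 0.25 with the mitosis score. A set of 10 erythroid markers, which could mark blood or blood-forming cells, had a mean level of 9.07 to 9.49 in G1, 8.89 to 9.18 in G2 and 9.04 to 9.27 in G3. Of these 10, 6 were lower and 0 higher at an unadjusted 0.05 in G2, and their r with the mitosis score was -0.36. Their defining transcription factors Klf1 (7.83) and Gata1 (7.76) lay at or below the median of all values. Of 12 markers of Kupffer cells and leukocytes, 2 were higher at an unadjusted 0.05 in G3, Cd14 by 0.57 (adjusted p = 0.101 by limma) and Ptprc by 0.11 (adjusted p = 0.133), while 9 of the 12 had a lower mean in G3 than in G1 and the median difference was -0.01. Their r with the mitosis score was 0.13, for 7 markers of stellate cells it was 0.11, for 4 of endothelium 0.25, for 4 of cholangiocytes 0.11 and for 4 of fetal liver 0.42. The 8 skeletal muscle markers had a mean level of 7.78 to 7.79 in every pup of G1 and G2, and of up to 10.30 in G3, where replicate 2 had Acta1, skeletal actin, at 13.70. The mitosis score difference of G3 minus G1 without that pup was 0.14. The part of any of these cell types in the differences was not tested.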

How the data were processed

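Liver RNA of 18 pups was hybridised to Illumina RatRef-12 arrays, 1 array per pup. The deposited values are log2 intensities that the authors normalized with lumi in FlexArray 1.2. Which normalization lumi applied, and its version, are not given in the labels or methods, and no detection calls came with the values. Of 22523 probes, 13793 carried 1 gene symbol through the platform annotation (updated through the RefSeq table of GRCr8), and 8730 carried none.

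Groups were compared on 12 arrays, sexes pooled, with lmFit and eBayes of limma 3.58.1 in R 4.3.3 (two-sided), with Benjamini-Hochberg adjustment over all probes and a threshold of 0.05. The F-test, the sexes and the interaction used 18 arrays. Single genes were also tested over all 924 splits of 6 against 6 pups, and pairs of genes by 100000 permutations (numpy 2.4.6, scipy 1.17.1). The limma step was tested on simulated data.

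The genes named are the 10 brightest, the 4 of smallest p in each exposed group against G1, the 2 in G3 against G2, the F-test and the sexes, and Cdk1, Ccnd1 and Pcna, with Mki67 and Top2a had they been measured. Up to 3 genes of smallest p come from each other list. The members and lists were chosen with earlier results of these data known. Alternatives were a variance trend, dim probes left out, quantile normalization, all groups together, sex as a covariate, a replicate block, 1 sex, the mean of all probes of a gene, and each pup left out. Same-numbered pups of different groups had correlations of their deviations between -0.33 and 0.22, 2 of 18 above 0.1. No pairing by number across groups was seen, and these values say nothing of littermates within a group.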

Additional observations from a re-analysis of the deposited data

Results flagged for a closer look

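In 3 of 63 groups of 6 pups (19 named genes and 2 scores in 3 groups) 1 pup stood apart by Dixon's criterion at the 95% level, and chance flags about 1 in 20. Tyms in G1 replicate 2 was 8.75, with the next control at 8.43. Nusap1 in G2 replicate 6 was 8.26, with the next G2 pup at 7.94. The replication score of the same pup was 0.329, with the next at 0.0867.

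In 4 of the 19 named genes every G3 male was above the mean of the control males and every G3 female below that of the control females. The share of all probes that do so is not given, so this count cannot be set against a background. The difference of the differences, females minus males, was -0.63 for Ccnd1 (males 0.35, females -0.28), -0.19 for Mcm7 (0.11, -0.08), -0.31 for Mcm2 (0.22, -0.09) and -0.12 for Mcm3 (0.09, -0.03). As interactions over all probes by limma, all 4 had an adjusted p of 1. The unadjusted p was 0.187, 0.152, 0.046 and 0.142.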

How the results depend on the processing

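No member passed the test of any comparison under the alternatives with all 18 pups, with 1 sex, or with a replicate block (0 past the test and 6, 7 and 3 genes at an unadjusted 0.05 in G2 against G1, G3 against G1 and G3 against G2), and leaving out 1 pup gave 0 to 1 past it in G3 against G1 (Aurka) and in the F-test (Mcm5), the 1 without G1 replicate 6, where the probes past the test were 1434 in place of 18 and 902 in place of 42. No pairing of the pups by number across groups was seen. With the block, 0 of all probes passed the test in G2 against G1, G3 against G1 and G3 against G2, in place of 3, 18 and 4. Of the 4, 8 and 3 members at an unadjusted 0.05 in these comparisons, 3, 5 and 1 also reached it with the block. Counts of members at an unadjusted 0.05 moved more than those past the test. For G2 against G1 the count of 4 was 2 in males only and 1 to 8 with 1 pup left out (1 without G1 replicate 1, 2 or 5 or G2 replicate 6, 2 without G2 replicate 3 or 5, 7 without G2 replicate 4, 8 without G1 replicate 6). For G3 against G1 the count of 8 was 2 in females only and 4 to 17 with 1 pup left out (4 when G1 replicate 2, 4 or 5 was left out and 4 when it was G3 replicate 1, 3 or 4, 5 without G1 replicate 1 and 5 without G3 replicate 2, 13 without G3 replicate 5, 17 without G1 replicate 3). For G3 against G2 the count of 3 was 5 with a variance trend and 5 with quantile normalization, 12 in males only, 1 in females only and 2 to 7 with 1 pup left out (5 without G2 replicate 5 or 6 or G3 replicate 2, 6 without G2 replicate 2, 7 without G2 replicate 4). The share of all probes at 0.05 was 9.98%, 18.6% and 9.47% in these 3 comparisons. In males only it was 7.16%, 12.3% and 5.45%, and in females only 4.35%, 7.99% and 6.09%. With 1 pup left out it was 7.11% to 14.7%, 15.5% to 22.2% and 8.01% to 10%. The genes changed too. In G3 against G2 the 3 were lower replication genes, while 11 of the 12 in males only were higher mitosis genes. Quantile normalization was chosen after seeing the data. Fits with 1 sex or with 1 pup left out also rest on fewer pups, and the cause of these moves was not tested.

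Of 838 values of single genes under alternatives, 27 changed sign and 811 did not. In females only, G3 minus G1 was -0.28 for Ccnd1, -0.0059 for Prc1, -0.078 for Mcm7, -0.087 for Mcm2 and -0.0295 for Mcm3, and G2 minus G1 was -0.013 for Cenpf. In males only, G3 minus G1 was 0.15 for Mcm6 and 0.0029 for Mcm5, and G2 minus G1 was -0.14 for Cdc20, -0.026 for Prc1 and -0.0022 for Mcm7. With 1 pup left out, G3 minus G1 ranged from -0.11 to 0.062 for Pcna, -0.12 to 0.17 for Ccnd1, -0.014 to 0.041 for Mcm7 and -0.023 to 0.0083 for Mcm5, and G2 minus G1 from -0.036 to 0.25 for Ccnd1, -0.022 to 0.14 for Cdc20 and -0.043 to 0.0405 for Mcm7. With 1 pup left out, the mitosis score difference was 0.05 to 0.14 in G2 and 0.11 to 0.17 in G3, and the replication score difference 0.06 to 0.14 in G2 and -0.04 to 0.03 in G3. In males and females the mitosis difference was 0.03 and 0.17 in G2 and 0.21 and 0.06 in G3, and the replication difference 0.12 and 0.11 in G2 and 0.06 and -0.05 in G3. The precision is limited by 6 pups from 3 litters a group, and for the 20 genes near the median of all values by signal that cannot be set against a background.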
